A study of Mus musculus with 4 samples.

Results

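The structural and nuclear RNAs followed here in the developing mouse face were Rpph1, Rmrp, Terc, Rn7sk, Gm42418, Malat1 and Neat1. They were chosen by their log2 RPKM difference between mutant and control embryos, which was known from earlier results of the same table, and for their expected behavior in the selection of poly(A) RNA. Their differences are therefore given as a description, with no test. Of the 7 RNAs, 6 had values and Rn7sk was not analysed here, out of 33708 rows on 19 autosomes. The frontonasal prominence (FNP), the tissue that forms the forehead, the middle of the nose and the philtrum, was dissected from FVB/NJ embryos at E10.5 with 29 somites. The 2 control embryos were Smchd1 +/+ (called WT) and the 2 mutant embryos were Smchd1 MommeD43/MommeD43 (called MD43), homozygous for a missense allele that was recovered from an ENU mutagenesis screen. Smchd1 encodes a chromatin protein that acts in X inactivation and in the silencing of several autosomal gene clusters. By the labels 1 WT embryo was female and 1 was male, both MD43 embryos were male, and the second embryo of each genotype came from the same mother. Each library was made from 100 ng of total RNA with a stranded kit that selects poly(A) RNA.

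The table gives 1 log2 RPKM value (reads scaled to library size and to kilobases of transcript) for each genotype, not for each embryo. No SD, replicate number or p-value could therefore be computed, and sex, litter and genotype cannot be told apart. Read numbers were recovered from the deposited values and are the geometric mean over the 2 libraries of a genotype. The depth that the values imply is 16055882 reads for WT and 22328791 for MD43, a ratio of 1.39. An error given after ± is the smallest standard error that counting these reads allows on the log2 scale, and it holds no variation between embryos. A gene was used where it had at least 10 reads in at least 1 genotype. Reads could not be recovered for rows without an exon length, so those rows were not used whatever their level. Among the 15377 genes used, the median log2 difference (MD43 minus WT) was 0.006, with 51.2% of genes higher in MD43 and 48.8% lower. The middle 50% of all genes used lay between -0.17 and 0.15. Smchd1 itself stood at a log2 RPKM of 3.30 in MD43 and 3.31 in WT, a difference of -0.01 ± 0.02, and since a missense allele need not lower its transcript, this checks no label. Because the tissue was sequenced in bulk, fewer cells of a type and less RNA per cell cannot be told apart in any of these values.

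Most of these RNAs are made or finished unlike a messenger RNA. Rpph1 and Rmrp are short RNAs transcribed by RNA polymerase III. Rpph1 is the catalytic RNA of RNase P, which trims the 5′ end of transfer RNA precursors, and Rmrp is the related RNA of RNase MRP, which cuts the ribosomal RNA precursor. Terc is the template RNA of telomerase, and Rn7sk holds the elongation factor P-TEFb in an inactive particle. Gm42418 is a name in the annotation for a stretch of ribosomal RNA sequence (the RefSeq gene Rn18s-rs5 lists Gm42418 as a synonym). Malat1 is a long RNA of nuclear speckles, and Neat1 is the scaffold of paraspeckles. Mature Malat1 and the long form of Neat1 carry no poly(A) tail. Their 3′ ends are cut by RNase P, the enzyme that holds Rpph1, and are protected by a triple helix between U-rich stretches and a run of A that the gene itself encodes. Selection with oligo(dT) binds runs of A, so the RNAs were read for such runs.

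The last 80 bases of Rpph1 and Rmrp are shown because they end without a run of A. Bases are given 5′ to 3′ in the DNA alphabet from GENCODE M21 transcripts (GRCm38), in lower case, with runs of 5 or more A in capitals. Both genes are on the minus strand, Rpph1 with its last bases at chr14:50807449-50807528 and Rmrp, in the form of 271 nt, at chr4:43492788-43492867. The stretch of Gm42418 around its longest run of A, on the plus strand at chr17:39847133-39847206, is shown beside them because it is one of 2 such runs in that RNA.
Rpph1: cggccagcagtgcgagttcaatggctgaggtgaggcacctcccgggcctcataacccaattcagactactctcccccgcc
Rmrp: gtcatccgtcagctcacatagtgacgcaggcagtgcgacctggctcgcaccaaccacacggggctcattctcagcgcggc
Gm42418: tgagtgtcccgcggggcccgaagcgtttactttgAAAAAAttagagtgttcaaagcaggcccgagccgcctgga

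Rpph1 (319 nt, 67.1% GC) held no run of A longer than 2 bases, and Rmrp (271 nt, 64.2% GC) none longer than 3. Such RNAs were uncommon among the genes used, since 1.65% of their longest transcripts had a longest run of at most 3 A. The median transcript was 3189 nt long with 49.9% GC and a longest run of 6 A. The share was not matched for length, and a longer transcript has more places for a run of A. Rn7sk (331 nt, 58% GC) also had no run above 3, Terc (423 nt in GENCODE, 67.1% GC) had 1 run of 5, and Gm42418 (1831 nt, 60.2% GC) had a longest run of 6. Malat1 (6983 nt, 42.5% GC) held 22 runs of 5 or more A, the longest of 12 bases, and Neat1 (20771 nt, 47.3% GC) held 19, the longest of 7. A run of 12 or more A was found in 11.5% of the longest transcripts of the genes used.

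The 3′ elements of Malat1 and Neat1 are shown next, with capitals marking the letters that both share in stretches of at least 10. Both genes lie on the minus strand of chromosome 19, the Malat1 stretch at chr19:5795954-5796033 and the Neat1 stretch, which is the last 80 bases of its annotated transcript, at chr19:5824708-5824787.
Malat1: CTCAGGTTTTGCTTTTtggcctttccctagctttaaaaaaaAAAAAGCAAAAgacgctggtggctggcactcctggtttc
Neat1: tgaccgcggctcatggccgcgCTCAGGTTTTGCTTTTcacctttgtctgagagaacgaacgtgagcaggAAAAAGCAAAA

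The 16-base U-rich stretch was found in the longest transcripts of 2 of 55450 annotated genes, Malat1 and Neat1. The 11 bases that close the element occurred in 304 of them. In Neat1 these 11 bases end the annotated transcript at base 20771. In Malat1 they end at base 6691, and the annotation runs on for another 292 nt, which holds the tRNA-like piece that RNase P releases. The 12-base run of A in Malat1 is part of this element, at bases 6674 to 6685.

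The short RNAs and the rRNA-like RNA were higher in MD43, and both nuclear-body RNAs were lower. Of the 5 RNAs with enough reads to be used, Rpph1 and Rmrp were over 2-fold higher in MD43, Neat1 was over 2-fold lower, and Gm42418 and Malat1 lay within 2-fold. Among all genes used, 252 were at least 2-fold higher (1.64%) and 380 were at least 2-fold lower (2.47%). Since the members were chosen on this contrast, nothing is read from their count against those shares. The order of the RNAs by log2 RPKM also differed between the genotypes. In WT it ran from Gm42418 through Malat1, Rmrp, Rpph1 and Neat1 to Terc, and in MD43 from Gm42418 through Rmrp, Rpph1, Malat1 and Terc to Neat1, with Terc on too few reads to be placed.

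**Figure D1:**
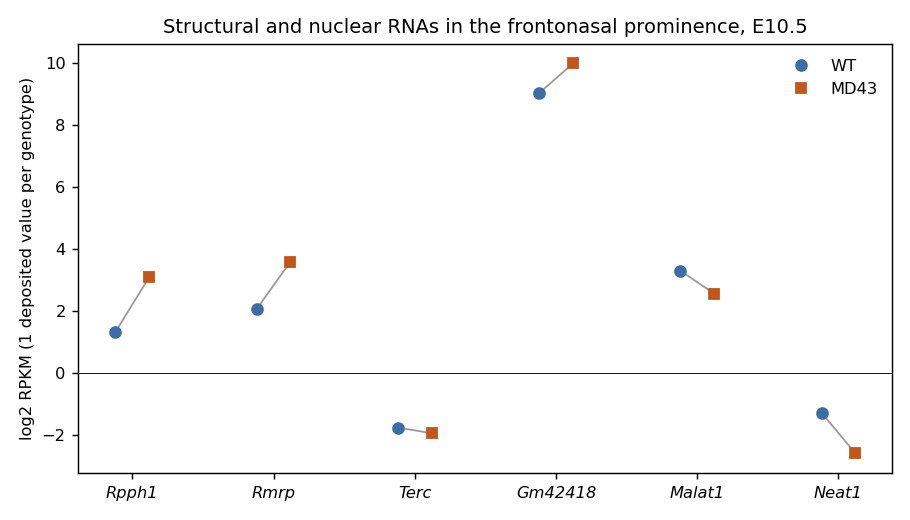
Log2 RPKM (vertical axis) of 6 structural and nuclear RNAs in WT (circles) and MD43 (squares) FNP, with 1 deposited value per genotype and therefore no error bar. Rpph1, Rmrp and Gm42418 lie higher in MD43 and Malat1 and Neat1 lower, while Terc rests on reads under the floor of 3.

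Rpph1 (ENSMUSG00000092837.1, chr14:50807449-50807767, minus strand, ribozyme) had a log2 RPKM of 1.33 in WT and 3.10 in MD43. These levels stand on 12.8 reads in WT and 61.2 in MD43. The log2 difference was 1.78 ± 0.31, a level 3.43-fold higher in MD43, and 68 of the genes used (0.442%) were at least as high. The products of the 2 library counts show what remains unknown. In WT the product was 165, so that the libraries held 1 and 165, 3 and 55, 5 and 33, or 11 and 15 reads. In MD43 the product of 3744 allowed 18 pairs with reads in both libraries, the most even of them 52 and 72. Which pair is the true one, and which embryo it belongs to, cannot be told.

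Rmrp stood in 2 rows that share their reads, a lincRNA of 281 nt (ENSMUSG00000115420.1, chr4:43492783-43493063, minus strand) and a ribozyme of 271 nt (ENSMUSG00000088088.1, chr4:43492788-43493058), and counts as 1 measurement. Its log2 RPKM was 2.07 in WT and 3.60 in MD43 over the longer form. It had 18.9 reads in WT against 76.1 in MD43, and the log2 difference was 1.53 ± 0.26, a level 2.90-fold higher in MD43. At least as high a difference was seen in 105 of the genes used (0.683%). The WT product of 357 allowed 1 and 357, 3 and 119, 7 and 51, or 17 and 21 reads. The most even of 18 MD43 pairs with reads in both libraries was 69 and 84. Rmrp exceeded Rpph1 by 0.74 ± 0.37 on the log2 RPKM scale in WT and by 0.50 ± 0.18 in MD43. These gaps rest on few reads, and on poly(A)-selected RNA, which need not reflect the level of an RNA without a tail. Malat1 exceeded Rmrp by 1.24 ± 0.24 in WT, whereas in MD43 it lay 1.04 ± 0.12 below Rmrp on the same scale.

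The share of genes at least 2-fold higher in MD43 was also taken over genes like Rpph1 and Rmrp in length or reads. Rpph1 and Rmrp are themselves counted in each of these shares, Rmrp with both of its rows. Among genes used with under 500 nt of exon, 6.25% were at least 2-fold higher in MD43 (13 of 208), and their median log2 difference was 0.03. Among genes with 10 to 30 WT reads the share was 1.95% (36 of 1850), with a median of -0.14. Rpph1 and Rmrp had at least 10 reads in both genotypes. Of all such genes 0.391% were at least 2-fold higher (57 of 14575) and 1.62% at least 2-fold lower (236). These backgrounds were chosen after the data were seen. Since both RNAs were chosen on this contrast, nothing is read from them against these shares either.

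Neither short RNA lies alone in the genome. Rpph1 overlaps Ccnb1ip1, a gene on the same strand that encodes a protein of meiotic recombination, and 233 of its 319 bases lie in Ccnb1ip1 exons. Ccnb1ip1 had 21.5 reads in WT and 62.0 in MD43, a log2 RPKM difference of 1.05 ± 0.26. Reads of both genes fall on the same bases and cannot be told apart there. On the other side, 73 bp away and on the opposite strand, Parp2, a DNA repair enzyme, differed by -0.09 ± 0.04 on the log2 scale, from 1219 reads in WT and 1597 in MD43. Rmrp shares 164 bp with Ccdc107 on the opposite strand, 124 of them in exons. Ccdc107 had 228 reads in WT against 296 in MD43, and its log2 difference was -0.10 ± 0.09. Whether the authors' counting used strand is not given in the sources used here. Reads of Rmrp and Ccdc107 on their shared bases therefore cannot be told apart either. The larger difference of each short RNA was thus not seen in Parp2 or Ccdc107, while Ccnb1ip1 moved in the same direction as Rpph1.

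**Figure D2:**
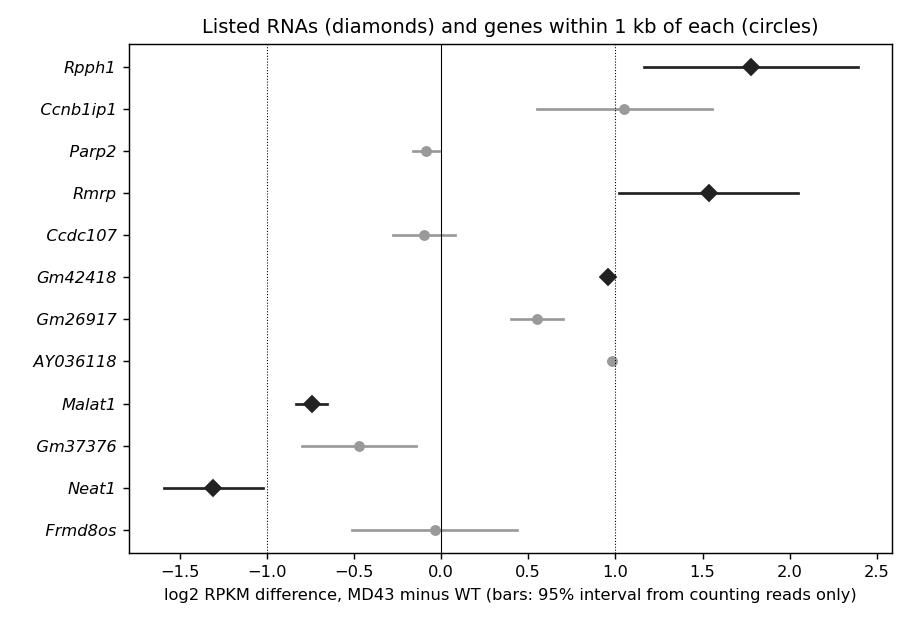
Log2 RPKM difference, MD43 minus WT (horizontal axis), of the 5 RNAs used (diamonds) and of genes used within 1000 bp of each (circles), with 95% intervals from counting reads only and dotted lines at 2-fold. The intervals of Rpph1, Rmrp and Gm42418 lie above 0, those of Malat1 and Neat1 below 0, and Parp2, Ccdc107 and Frmd8os lie near 0. A gene that overlaps a listed RNA may hold reads of that RNA.

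The protein partners of the short RNAs differed little. All 11 proteins of RNase P and RNase MRP were used, 9 were higher in MD43 and 2 lower, and none passed 2-fold. Their median log2 difference was 0.12, against 0.006 over all genes used. The highest with at least 100 reads in both genotypes was Pop5 at 0.30 ± 0.06, and the lowest was Pop4 at -0.03 ± 0.06, both subunits of the 2 enzymes. The 31 genes of the RNA polymerase III machinery, which transcribes Rpph1, Rmrp and Rn7sk, had a median of 0.04, with 21 higher and 10 lower and none past 2-fold. They ran from Snapc1 at -0.23 ± 0.07 to Snapc4 at 0.28 ± 0.06, both subunits of the complex that binds the promoters of small nuclear RNA genes. For RNA end processing and nuclear decay, 21 of 24 listed genes were used, 14 higher and 7 lower, with a median of 0.06. Elac2, which trims the 3′ end of transfer RNA precursors, stood highest at 0.44 ± 0.05, and Zcchc7, a cofactor of the nuclear exosome, lowest at -0.60 ± 0.07.

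Terc (chr3:96414437-96414833 in the table, minus strand, 397 nt) was hardly detected. Its log2 RPKM was -1.75 in WT and -1.93 in MD43. In WT 1 library had 0 reads and the other 4, and in MD43 1 library had 0 and the other 6. Both genotypes lay under the floor of 3 reads (geometric mean), so no fold is given, and a difference was not detectable at this depth. The gene of the telomerase protein, Tert, had 248 reads in WT against 369 in MD43, and its log2 difference was 0.10 ± 0.08. Of the 11 genes listed for telomerase and H/ACA proteins and their cofactors, 9 were higher and 2 lower in MD43. None passed 2-fold, and the median log2 difference was 0.12. Nhp2, an H/ACA core protein, was highest at 0.33 ± 0.03, and Naf1, an assembly factor, was lowest at -0.30 ± 0.06.

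Rn7sk has no value here, so only its protein partners can be described. The 7 genes of the 7SK particle and P-TEFb had a median log2 difference of 0.01, with 4 higher and 3 lower and none past 2-fold. Larp7, which binds the 3′ end of 7SK, stood at 0.12 ± 0.03, and the cyclin gene Ccnt2 at -0.16 ± 0.03. Few other small RNAs could be described. Apart from Terc, no gene annotated as snRNA, snoRNA, misc_RNA or rRNA was analysed here, so nothing can be said of their reads. With the listed RNAs left out, 61 rows were annotated to another small RNA class. Of these, 56 had at most 3 reads in both genotypes and 2 could be used. Those were Scarna13, a guide RNA of Cajal bodies, with 8 reads in WT and 10.9 in MD43 and a log2 difference of -0.03 ± 0.48, and Gm26083, with 6.32 and 14.5 reads and 0.72 ± 0.49. Of 28 further small RNAs listed by name, 9 were in the table and 2 were used, Scarna13 and Bc1. Bc1 is an RNA polymerase III transcript of neurons that encodes a run of 23 A within its 168 nt, and it had 22.0 reads in WT and 58.3 in MD43, a log2 difference of 0.93 ± 0.26.

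Gm42418 (ENSMUSG00000098178.1, chr17:39846958-39848788, plus strand, annotated as a lincRNA) stood far above the other listed RNAs. Its log2 RPKM was 9.03 in WT and 9.98 in MD43, which is 522 and 1012 RPKM. It took 15339 reads in WT and 41356 in MD43, or 0.0955% and 0.185% of all reads. The log2 difference was 0.96 ± 0.01, a level 1.94-fold higher in MD43, just inside 2-fold. At least as high a difference was seen in 278 of the genes used (1.81%). Its counting error is small because of its many reads, and the variation between embryos is not known for it either.

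The table holds further rows in and beside Gm42418. AY036118 (chr17:39847113-39848035) lies inside it on the opposite strand, covers 50.4% of its length and had 90.1% as many reads in WT and 91.6% in MD43. AY036118 had 13815 reads in WT against 37885 in MD43, and its log2 RPKM difference was 0.98 ± 0.01. An unnamed row (chr17:39848103-39848827) overlaps the last 686 bp of Gm42418, and its log2 RPKM was 5.12 in WT and 5.10 in MD43, a difference of -0.02. Gm26917, which lies 616 bp before Gm42418, had 275 reads in WT against 560 in MD43, and differed by 0.55 ± 0.08. The higher level in MD43 was thus seen in Gm42418, AY036118 and Gm26917, and not in the unnamed row. Without knowing whether strand was used, the reads of Gm42418 and AY036118 cannot be told apart.

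**Figure D3:**
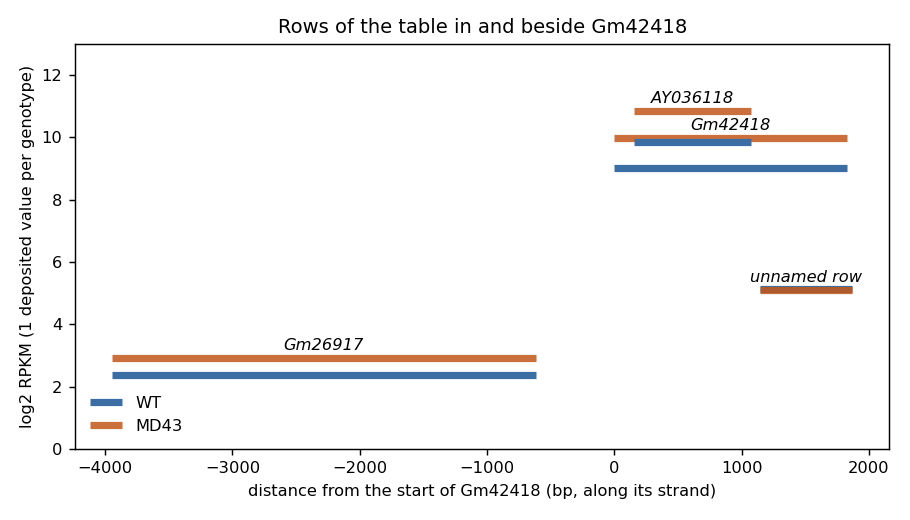
Log2 RPKM (vertical axis) of the rows in and beside Gm42418 in WT and MD43, drawn as bars over their extent in bp from its start (horizontal axis), with 1 value per genotype. Gm42418, AY036118 and Gm26917 lie higher in MD43, and the bars of the unnamed row coincide at 5.10 and 5.12.

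The other transcripts listed here as rRNA-like were also higher in MD43, Gm26917 by less than Gm42418. Their likeness to rRNA was taken from the list and was not tested. Of 7 names listed, among them the synonyms Gm42418 and Rn18s-rs5, 5 were used. All 5 were higher in MD43 and 2 of them were past 2-fold. Over all genes used, 51.2% were higher and 1.64% were at least 2-fold higher. The median log2 difference of the 5 was 0.98 (0.99 without Gm42418 but with AY036118). Lars2, the gene of a mitochondrial leucyl-tRNA synthetase, had 2184 reads in WT against 6096 in MD43, and its level was 2.01-fold higher in MD43. Gm15564 had 345 reads in WT and 1017 in MD43, a difference of 1.08 ± 0.06. These transcripts are not separate measurements throughout. AY036118 shares its bases with Gm42418, and Lars2 and Gm15564 share 28 windows of 25 bases on the same strand, which cover 52 bases if they overlap as 1 stretch. No window of 25 bases was shared, on either strand, between Gm42418 and Gm26917, Lars2 or Gm15564. Summed over the 5, the level was 1498 RPKM in WT and 2937 in MD43. The sum holds both Gm42418 and AY036118, so reads on their shared bases may be counted more than once. The genes of RNA polymerase I and of nucleolar proteins, which make and process ribosomal RNA, differed less. Of 24, 22 were higher in MD43 and 2 lower, none passed 2-fold, and the median log2 difference was 0.13. Bop1, a factor of large subunit assembly, was highest at 0.45 ± 0.03, and Taf1b, a subunit of the RNA polymerase I initiation factor, lowest at -0.11 ± 0.07.

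Malat1 (ENSMUSG00000092341.3, chr19:5795690-5802672, minus strand, 6983 nt) was lower in MD43. Its log2 RPKM was 3.31 in WT and 2.57 in MD43, which is 9.90 and 5.92 RPKM. These levels stand on 1110 reads in WT and 923 in MD43, fewer in the genotype that was sequenced more deeply. The log2 difference was -0.74 ± 0.05, a level 1.67-fold lower, and 667 of the genes used (4.34%) were at least as low. Gm37376 is annotated within Malat1 on the opposite strand, and all of its 453 nt overlap Malat1. It stood at 10.2 RPKM in WT and 7.34 in MD43. Without knowing whether strand was used, its reads cannot be told apart from those of Malat1, so it is no separate measurement. Its log2 difference was -0.47 ± 0.17, from 73.9 reads in WT and 74.2 in MD43.

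Neat1 (ENSMUSG00000092274.3, chr19:5824708-5845478, minus strand, 20771 nt) showed a larger difference on far fewer reads. Its log2 RPKM was -1.28 in WT and -2.58 in MD43, from 138 reads in WT and 77.5 in MD43. The log2 difference was -1.31 ± 0.15, a level 2.47-fold lower in MD43, and 190 of the genes used (1.24%) were at least as low. In MD43 the product of 6003 allowed 6 pairs of counts with reads in both libraries, the most even of them 69 and 87 reads. With a pseudocount of 1 RPKM the difference shrank to -0.28, since both levels lie under 1 RPKM. Frmd8os, 144 bp away, differed by -0.04 ± 0.24, from 31.1 reads in WT and 42.2 in MD43. Malat1 exceeded Neat1 24-fold in RPKM in WT and 35.4-fold in MD43. Neat1's RPKM is scaled to all 20771 nt, so this ratio would be smaller if its reads came from the short form. The row covers the long form of Neat1 whole, so its long and short forms cannot be told apart.

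**Figure D4:**
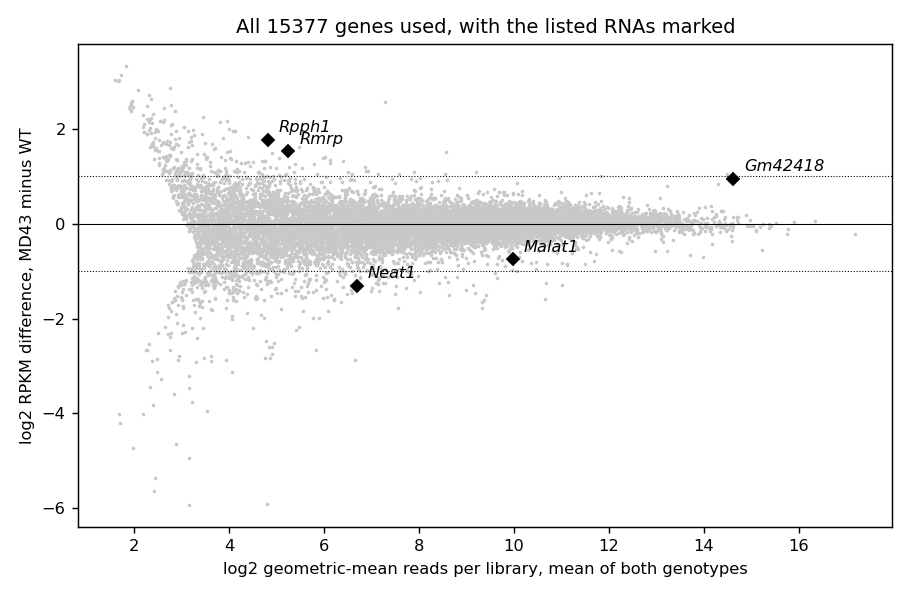
Log2 RPKM difference, MD43 minus WT (vertical axis), of 15377 genes used against log2 of the geometric-mean reads over both genotypes (horizontal axis), with the 5 listed RNAs as diamonds and dotted lines at 2-fold. Rpph1 and Rmrp lie among genes with few reads, where the cloud is wide, whereas Gm42418 lies at the top edge among genes with many reads and Malat1 and Neat1 at the lower edge.

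The proteins that share nuclear bodies with Malat1 and Neat1 did not differ much. The 14 genes of paraspeckle proteins were split 7 higher and 7 lower, with a median log2 difference of -0.001 and none past 2-fold. They ran from Hnrnph3 at -0.24 ± 0.03 to Rbm14 at 0.20 ± 0.03, both RNA-binding proteins. The 17 genes of nuclear speckle proteins had a median of 0.03, with 9 higher and 8 lower and none past 2-fold. Pnisr, an arginine and serine rich protein, was lowest at -0.25 ± 0.03, and the splicing factor Srsf2 was highest at 0.16 ± 0.01.

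Other long nuclear RNAs were mostly lower in MD43, as Malat1 and Neat1 were. Of the 16 that could be used among 22 listed, 13 were lower and 3 higher, and the median log2 difference was -0.38. The lowest was Rmst, a long RNA of neural progenitors, with 288 reads in WT and 157 in MD43 and a difference of -1.35 ± 0.10, the only one past 2-fold. The highest was the imprinted RNA Peg13, with 623 reads in WT and 1009 in MD43 and a difference of 0.22 ± 0.05. Over all lincRNA genes used the share at least 2-fold lower was 6.38% (30 of 470) and the share at least 2-fold higher was 3.4% (16), with 60.9% lower and a median of -0.13. Protein coding genes had a median of 0.01. The hosts of small nucleolar RNAs, which are spliced and carry a tail, were split 7 higher and 10 lower over 17 genes, with a median of -0.02. They ran from Snhg14 at -0.43 ± 0.05 to Snhg3 at 0.49 ± 0.05. Snhg4, at 7.25 RPKM in WT and 9.24 in MD43, had no exon length and is not among the 17.

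Replication-dependent histone genes, whose messages end in a stem loop in place of a tail, gave a mixed picture. Of 67 listed, 24 were used, 17 higher and 7 lower in MD43, with a median log2 difference of 0.54. Past 2-fold were Hist1h4d, Hist1h1e, Hist1h2bm, Hist1h1a, Hist1h1b, Hist1h2ag, Hist2h2bb and Hist4h4, with differences from 1.05 ± 0.40 (Hist1h4d) to 2.38 ± 0.66 (Hist4h4), all higher. Of the 24, 12 genes reached 10 reads in MD43 alone, the genotype sequenced more deeply, so the filter itself favored those that are higher there. Among the 12 with at least 10 reads in both, 1 was past 2-fold, Hist1h1e with 11.5 reads in WT and 34.3 in MD43, a level 2.15-fold higher. The 3 with at least 100 reads in both all lay below 0, from -0.44 ± 0.13 (Hist3h2a) to -0.04 ± 0.10 (Hist2h2be). Summed over the list, the level was 50.02 RPKM in WT and 55.5 in MD43.

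**Figure D5:**
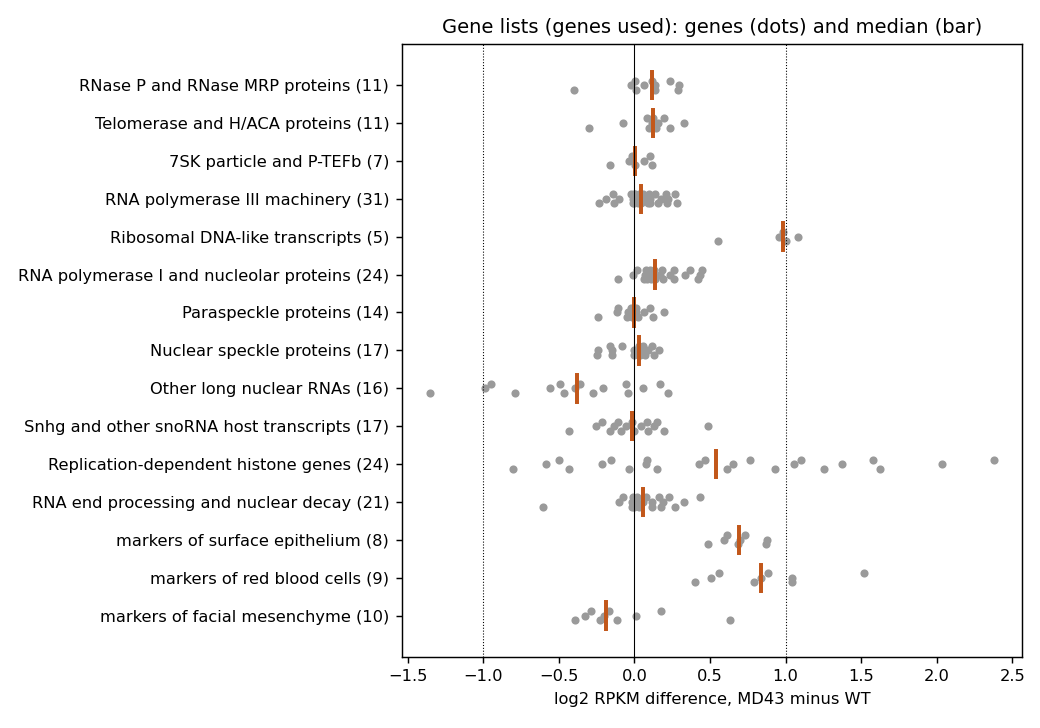
Log2 RPKM difference, MD43 minus WT (horizontal axis), of each gene used (dots) and its list's median (bars) for the gene lists named, with the number of genes in brackets and dotted lines at 2-fold. The transcripts listed as rRNA-like and the markers of surface epithelium and red blood cells lie above 0. The other long nuclear RNAs lie mostly below 0, and the protein lists near 0.

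Markers of some cell types also differed between the genotypes. All 8 markers of surface epithelium were higher in MD43, with a median log2 difference of 0.69 and a summed level of 122.5 RPKM in WT and 195 in MD43. They ran from the keratin gene Krt18 at 0.49 ± 0.04 to the tight junction gene Cldn7 at 0.88 ± 0.09. All 9 red blood cell markers used were also higher, with a median of 0.84 and 3061 RPKM in WT and 5820 in MD43. Among those past 2-fold were the embryonic globin gene Hbb-bh1 at 1.04 ± 0.01 and the anion exchanger gene Slc4a1 at 1.52 ± 0.08. Of 10 facial mesenchyme markers, all present, 3 were higher and 7 lower, with a median of -0.19, and the lowest was Twist1 at -0.39 ± 0.05. The 8 neural markers had a median of -0.09 and the 6 endothelial markers -0.08. Whether the share of epithelium or blood in the dissected tissue, or the depth, had a part in the differences of the listed RNAs was not tested.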

How the data were processed

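Poly(A)-selected RNA of 4 mouse FNPs, 2 of WT and 2 of MD43 genotype by the sample labels, was sequenced by the study. The authors trimmed the reads (Trim Galore 0.4.4), mapped them with HISAT2 2.0.5 to GRCm38.p6 and quantified them in SeqMonk, and the deposited table holds the authors' log2 RPKM values in 1 column per genotype. Its further columns hold the authors' mean, log2 fold change and FDR and were not used. Whether a library was counted by strand is not given in the sources used here. The design had foreseen that no test could be run on such values.

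Rows were matched to GENCODE M21 on symbol and position (33101 of 33708). The exon length of Terc came from RefSeq, since the table's coordinates differ from those of GENCODE. Other rows without a match had no exon length and were not used. The most frequent difference, -0.4758 in 12862 rows (38.2%), was taken to mark genes without reads, with an empty library counted as 0.9 reads. Squaring a value, once divided by that constant, gave the product of the 2 library counts. Of products under 1000, 99.9% in both genotypes were whole, or whole after division by 0.9 or by its square (tolerance 0.01). Most rows at the most frequent difference pass this check by construction. On simulated data of 33101 genes, the recovery of reads was checked and gave back 100.0% of them. The simulation also counted an empty library as 0.9 reads, so it does not test that value. Differences are MD43 minus WT as deposited, with no pseudocount. Counting intervals and the floor of 3 reads cover counting error only.

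The members and lists were chosen with earlier results of these data known. The named genes are the 7 RNAs and Smchd1, and of each list the members past 2-fold with at least 10 reads in a genotype, otherwise the highest and lowest with at least 100 reads in both. Some marker genes that this rule names are not reported here. Tert, Bc1, Scarna13, Gm26083, genes within 1000 bp of the listed RNAs and the histone genes with at least 10 or 100 reads in both genotypes were named after their values were seen. The backgrounds by exon length, by WT reads, by 10 reads in both genotypes and for lincRNA genes were also chosen after seeing the data. Alternatives were 4 scalings, pseudocounts of 0.1 and 1 RPKM, other filters, a 1.5-fold threshold and a correction for GC content and length. Python 3.11.15, numpy 2.4.6, pandas 2.3.3 and matplotlib 3.10.9 were used.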

Additional observations from a re-analysis of the deposited data

How the results depend on the processing

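No paired analysis was possible because the deposited values are given per genotype and not per embryo, and leaving out each replicate in turn was not run for the same reason. All 35 alternatives for the 5 listed RNAs with enough reads kept the direction of the difference, and in 30 the value moved by less than its 95% counting interval. Gm42418 moved to 0.92 when scaled on the upper quartile of protein coding genes, to 0.98 when scaled on ribosomal protein genes and to 0.90 after the correction for GC content and length, against 0.96 as deposited. Neat1 moved to -0.94 with a pseudocount of 0.1 RPKM and to -0.28 with 1 RPKM, both added to levels under 1 RPKM. Of 125 alternatives for the medians of the gene lists, 122 stayed within the counting interval of a list's median gene and 115 kept the sign. Those that moved were the paraspeckle proteins (0.046) and the speckle proteins (0.073) after the correction for GC content and length and the other long nuclear RNAs with a pseudocount of 1 RPKM (-0.18). The histone median turned from 0.54 to -0.21 with at least 100 reads in both genotypes, where 3 genes were left. The scalings moved all genes by between -0.024 and 0.032 on the log2 scale.

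Genes at least 2-fold higher in MD43 numbered 252, against 640 with no filter on reads, 57 with at least 10 and 7 with at least 100 reads in both genotypes, and 652 at 1.5-fold. Genes at least 2-fold lower numbered 380, against 1457, 236, 40 and 989 under the same settings. The filter of 10 reads in both genotypes was chosen after seeing the data. Rpph1, Rmrp and Neat1 had under 100 reads in at least 1 genotype, so depth limits them most, and Terc and Rn7sk could not be compared. The spread between embryos is not known for any value.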
